A study of Mus musculus with 20 samples.

Results

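The genes of oxidative phosphorylation, from both the nuclear and the mitochondrial genome, were followed in the livers of 20 male mice. Members were all genes whose symbol began with mt-Nd, mt-Co, mt-Cytb, mt-Atp, Nduf, Uqcr, Atp5 or one of the cytochrome c oxidase stems from Cox4 to Cox8, together with Sdha, Sdhb, Sdhc and Sdhd, when their mean count over the 20 libraries was at least 10. Of 22298 listed genes, 109 carried such a name and 101 reached that minimum. The other 8 were the second isoforms Cox6b2, Cox4i2, Cox6a2, Cox8b, Cox8c and Cox7b2, the pseudogene Cox5b-ps and a second, empty Atp5o entry. Mitochondrial DNA encoded 13 of the members and nuclear DNA 88. By complex, 52 belonged to complex I (45 nuclear and 7 mitochondrial), 4 to complex II (all nuclear), 9 to complex III (8 and 1), 17 to complex IV (14 and 3, with Ndufa4 placed here) and 19 to complex V (17 and 2).

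All 20 mice were Lepr db/db, lacking a working leptin receptor, and therefore obese and diabetic, so the control group was a disease model too. There were 4 groups of 5. Mice of the Vec group had received, at 5 weeks of age, an AAV8 vector with a non-targeting shRNA through the tail vein and then vehicle (CMC-Na) by gavage. The Vec+BBR group had the same vector and benzbromarone (BBR), a urate-lowering drug that inhibits the transporter URAT1, at 25 mg/kg once daily for 4 weeks. The shRNA group carried AAV8-PPARγ-shRNA, which targets Pparg, with vehicle, and the shRNA+BBR group carried it with BBR. Livers were taken after 6 h of fasting. Each library was made from unsorted liver tissue of 1 mouse, so fewer cells of a type and less RNA per cell cannot be told apart. AAV8 favours hepatocytes, while the RNA came from all cells of the tissue.

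Oxidative phosphorylation passes electrons from NADH through complex I, or from succinate through complex II, to ubiquinone, then through complex III and cytochrome c to complex IV, where oxygen is reduced. Complexes I, III and IV pump protons across the inner mitochondrial membrane, and complex V, the ATP synthase, uses that gradient to make ATP. All complexes but complex II join subunits from both genomes, so the supply of their parts depends on transcription in the nucleus and in the mitochondrion. Hepatocytes are rich in mitochondria and draw on them for fatty acid oxidation, ketone production, gluconeogenesis and urea synthesis.

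The mitochondrial members lie so closely on their genome that some share bases, which bears on how their reads could be assigned. The 3 longest overlaps are shown here on the plus strand of GRCm38 (mm10), with the shared bases in capitals. In each pair, reads that fall wholly within the capitals cannot be told apart between the pair. The first lies at chrM:7907-7989, the second at chrM:10147-10193 and the third at chrM:13532-13585.
mt-Atp8 and mt-Atp6: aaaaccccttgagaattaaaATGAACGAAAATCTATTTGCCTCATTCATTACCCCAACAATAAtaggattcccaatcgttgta
mt-Nd4l and mt-Nd4: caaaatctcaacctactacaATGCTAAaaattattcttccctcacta
mt-Nd5 and mt-Nd6: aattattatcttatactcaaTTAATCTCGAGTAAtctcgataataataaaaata
The first stretch of capitals opens with the start codon of mt-Atp6 inside the end of mt-Atp8; it is 43 bases long, which is 21.1% of mt-Atp8. The second is 7 bases long and the third 14 bases. mt-Nd5 runs on the plus strand and mt-Nd6 on the minus strand, and the library kit named does not mark strand. The values of mt-Nd6, and of mt-Atp8 and mt-Nd4l within their overlaps, are therefore uncertain. Nuclear copies of mitochondrial DNA and the processed pseudogenes of many nuclear subunits can also share reads with members.

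Mitochondrial messages stood far above nuclear ones in every complex that has both. On the FPKM scale, which divides counts by transcript length and depth and so allows genes to be compared, the median over the 13 mitochondrial members was 5067 and that over the 88 nuclear members 142, a ratio of 35.8. The nuclear median itself lay above 97.6% of all listed genes. Cytochrome oxidase mRNAs led the mitochondrial order. mt-Co1, the catalytic subunit of complex IV, had a mean of 34032 ± 5288 FPKM (SD, n = 20). It was followed by mt-Co3 (14225), mt-Co2 (13087), mt-Nd1 (8946), mt-Atp6 (7822), mt-Cytb (7164), mt-Nd4 (5067), mt-Nd2 (3958), mt-Nd5 (2043), mt-Nd3 (1736), mt-Nd6 (1463), mt-Atp8 (967) and mt-Nd4l (801), all as mean FPKM. Several neighbours in this order changed places between livers. mt-Co3 exceeded mt-Co2 in 16 of 20 livers, mt-Nd1 exceeded mt-Atp6 in 18, mt-Atp6 exceeded mt-Cytb in 18, mt-Nd5 exceeded mt-Nd3 in 17, mt-Nd3 exceeded mt-Nd6 in 14 and mt-Atp8 exceeded mt-Nd4l in 17.

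**Figure D1:**
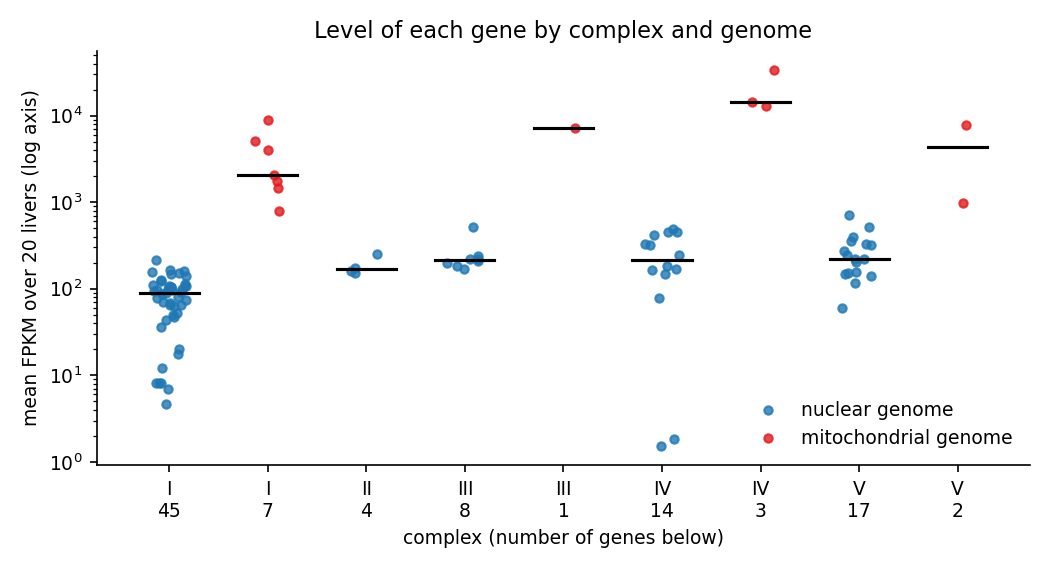
Mean FPKM over the 20 livers (log axis) of each member, by complex and by genome; each point is 1 gene and each line a median. The mitochondrial points of each complex sit at 801 FPKM or above, and the nuclear points of complex I have a lower median (88.2) than those of complexes II to V (168 to 221).

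Among nuclear members the levels of complex I stood apart. Its 45 nuclear members had a median of 88.2 FPKM, against 168 for complex II, 214 for complex III, 214 for complex IV and 221 for complex V. The assembly factors account for the lowest complex I values. These proteins help to build complex I and are not part of it, and the 8 of them had a median of 8.19 FPKM, against 95.2 for the 30 accessory subunits and 98.6 for the 7 core subunits. The highest nuclear member of each complex was Ndufb9 in complex I (214 FPKM), the iron-sulfur subunit Sdhb in complex II (254), Uqcrq in complex III (513), Cox6a1 in complex IV (495) and the catalytic β subunit Atp5b in complex V (703). Apart from the second isoforms described next, the lowest entry among the subunits was Ndufb1-ps (35.7 FPKM), which the annotation lists as a non-coding RNA and the name rule keeps.

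Where a subunit has a second isoform typical of another tissue, the common isoform dominated in these livers. Cox7a2 averaged 171 ± 25.5 FPKM (SD, n = 20) and the striated-muscle isoform Cox7a1 1.50 ± 0.54. Ndufa4 averaged 456 ± 50.7 FPKM and its paralog Ndufa4l2 1.84 ± 0.805. Cox4i1 averaged 416 ± 43.1, Cox6a1 495 ± 51.6, Cox6b1 247 ± 39.4 and Cox8a 457 ± 50.4 FPKM, while Cox4i2, Cox6a2, Cox6b2 and Cox8b did not reach the count minimum. The c-ring of the ATP synthase is encoded by 3 nuclear genes that make the same mature protein, and all 3 were high: Atp5g3 at 401 ± 39.6, Atp5g1 at 244 ± 29.5 and Atp5g2 at 115 ± 10.1 FPKM.

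The libraries held 17432904 to 25024099 assigned counts, and none of the 40 pairs of libraries within groups agreed within counting noise. Pparg fell in the shRNA group against Vec, from 24.8 ± 8.63 to 5.73 ± 1.53 CPM (counts scaled by TMM to a common library size; SD, n = 5 here and below), a change of −2.11 on the log2 scale (edgeR adjusted p = 4.47e-05). It fell with BBR present too, from 31.8 ± 4.57 to 13.9 ± 6.22 CPM (log2 fold change −1.20, edgeR adjusted p = 0.00842), and it rose between shRNA and shRNA+BBR by 1.28 (edgeR adjusted p = 0.00773). Several marker lists moved with BBR. Of 10 hepatocyte markers, 9 were in the files, and they summed to 134052 to 147475 CPM in Vec and 108962 to 133786 in Vec+BBR, without overlap. Of these 9, 4 were called lower and none higher in Vec+BBR vs Vec, with a median log2 fold change of −0.29. Stellate markers (8 genes) summed to 143 to 295 CPM in Vec and 310 to 422 in Vec+BBR, and to 199 to 264 in shRNA and 260 to 423 in shRNA+BBR, with 4 and 5 called higher with BBR. Cholangiocyte markers (5 genes) summed to 24.0 to 42.6 CPM in Vec and 50.7 to 110 in Vec+BBR, with 1 called higher. Adipocyte markers (5 genes, with Ucp1 at 0 throughout) summed to 0.0506 to 0.921 CPM in Vec and 1.33 to 6.40 in Vec+BBR. These are very few counts, since 3 counts make 0.120 to 0.172 CPM. Only 1 of the 5 passed the count filter, and it was called higher (log2 fold change 3.22). Endothelial markers (7 genes) had 4 called higher in Vec+BBR vs Vec and 3 higher in shRNA vs Vec. In shRNA+BBR vs shRNA, 1 of them was called higher and 2 lower. Macrophage markers (8 genes) had 1 higher and 2 lower in Vec+BBR vs Vec. They had 3 higher in shRNA+BBR vs shRNA and 1 lower in shRNA vs Vec. Of all genes, 15.5% were called in Vec+BBR vs Vec, 15.7% in shRNA+BBR vs shRNA and 13.1% in shRNA vs Vec. The other sums over all livers were 110 to 287 CPM for macrophages (8 genes), 399 to 2325 for erythroid cells (6) and 0.153 to 13.5 for striated muscle (8, with Myh2 at 0 throughout).

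The share of all counts taken by the mitochondrial mRNAs varied most between the shRNA+BBR livers. A single Vec+BBR liver stood at 13.8%, with the others from 9.96% to 11.0%. A single shRNA liver stood at 12.3%, with the others from 9.90% to 10.4%. The mitochondrial share was 9.66%, 9.38%, 10.8%, 9.14% and 9.98% in the 5 Vec livers, and 13.8%, 10.3%, 9.96%, 10.2% and 11.0% in the Vec+BBR livers. In the shRNA livers it was 10.1%, 9.90%, 12.3%, 10.3% and 10.4%, and in the shRNA+BBR livers 10.2%, 16.2%, 14.6%, 12.7% and 11.9%. The groups overlapped throughout, with means of 9.80 ± 0.654%, 11.1 ± 1.58%, 10.6 ± 0.960% and 13.1 ± 2.33% (SD, n = 5). In each group the liver with the highest share was also the one whose library was deepest, and the part of depth in the share was not tested. The nuclear members held 1.28 ± 0.0714% of counts in Vec, 1.28 ± 0.0368% in Vec+BBR, 1.42 ± 0.0639% in shRNA and 1.43 ± 0.0766% in shRNA+BBR. These nuclear shares lay between 1.17% and 1.52% in every liver, with the higher means in the 2 knockdown groups.

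**Figure D2:**
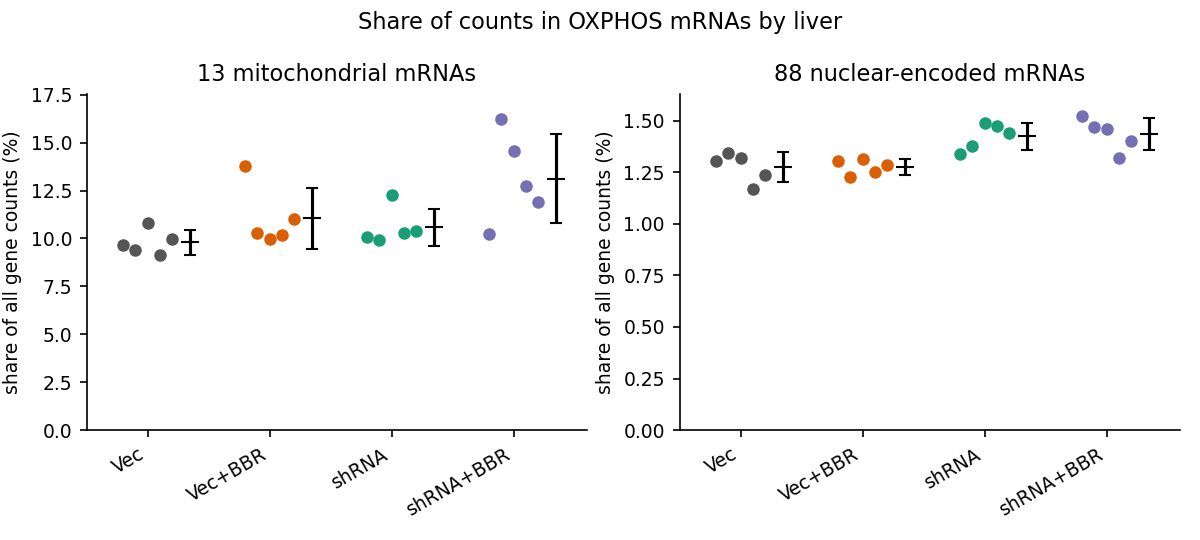
Percent of a library's counts taken by the 13 mitochondrial members (left) and the 88 nuclear members (right) in each liver, by group; points are livers and bars the mean ± SD (n = 5). The highest mitochondrial share is 16.2% in a shRNA+BBR liver and the lowest 9.14% in a Vec liver.

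mt-Co1 held the largest part of the mitochondrial messages in each group. It took 47.8%, 44.6%, 49.8% and 47.2% of all mitochondrial counts in Vec, Vec+BBR, shRNA and shRNA+BBR, as group means. mt-Nd5, the most 3′ of the plus-strand genes of complex I, took 3.39%, 3.32%, 3.85% and 2.93%.

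BBR in mice with the control vector was set against vehicle to ask what the drug does when Pparg is intact. Most nuclear members had lower values with BBR, by small amounts, and the mitochondrial members did not share that direction. In the same comparison hepatocyte markers were lower (8 of 9 below 0, 4 called) and stellate and endothelial markers higher (4 of 8 and 4 of 7 called), and their part in the members' values was not tested. Among the 101 members 1 was called higher and 7 lower at an edgeR adjusted p under 0.05, against 15.5% of all 12342 genes tested (7.58% higher and 7.88% lower). The count of 8 is below that background share. The nuclear median log2 fold change was −0.18, with 9 of 88 above 0, the mitochondrial median 0.12, with 10 of 13 above 0, and that of all genes −0.01. With library totals in place of TMM the split was 4 higher and 3 lower, the nuclear median −0.05 and that of all genes 0.13. How many of all genes were called with library totals is not given here. By complex, the nuclear medians were −0.21 for complex I (6 lower), −0.14 for II (none called), −0.11 for III (none called), −0.09 for IV (1 higher) and −0.18 for V (1 lower). None of the 8 nuclear members of complex III and none of the 17 of complex V had a log2 fold change above 0.

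Complex I held 6 of the 7 members that fell. Ndufaf5, an assembly factor that modifies a core subunit, measured 6.36, 6.94, 6.76, 5.58 and 4.66 CPM in the Vec livers and 4.15, 4.21, 4.80, 3.70 and 4.33 in the Vec+BBR livers. Only the highest Vec+BBR liver reached the lowest Vec liver, and the log2 fold change was −0.51 ± 0.12 (SE, edgeR adjusted p = 0.00651), called in each of the 20 fits that left out 1 library. Ndufb10, an accessory subunit of the membrane arm, measured 94.3, 112, 87.5, 70.4 and 75.0 CPM in Vec and 76.0, 56.4, 66.5, 61.3 and 71.7 in Vec+BBR. The groups overlapped, and the log2 fold change was −0.40 ± 0.11 (SE, edgeR adjusted p = 0.0174). That call was lost without Vec 2 (0.0561), Vec+BBR 2 (0.0505) or Vec+BBR 4 (0.051), each as an edgeR adjusted p.

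The other members of complex I called lower were the assembly factor Ndufaf6 (log2 fold change −0.42, edgeR adjusted p = 0.019), the accessory subunits Ndufa12 (−0.32, 0.0333) and Ndufb6 (−0.32, 0.0492), and the core iron-sulfur subunit Ndufs8 (−0.38, 0.0491). In complex V the c-ring gene Atp5g1 measured 176, 201, 166, 137 and 147 CPM in Vec and 146, 112, 137, 123 and 130 in Vec+BBR. Its log2 fold change was −0.35 ± 0.10 (SE, edgeR adjusted p = 0.0198), and the call was lost without Vec 2 (0.0627), Vec+BBR 2 (0.0565) or Vec+BBR 4 (0.0527). The other c-ring genes were not called. Across all members the number called was 1 without Vec 2, Vec+BBR 2 or Vec+BBR 4, and 3 without Vec 1. It was 5 without Vec+BBR 3, Vec+BBR 5, shRNA 1, shRNA 2, shRNA 4 or shRNA+BBR 1, 13 without Vec 4, 14 without Vec 5 and 21 without Vec+BBR 1, the Vec+BBR liver of highest mitochondrial share.

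Ndufa4l2 was the only member called higher with BBR in these mice. The gene encodes a paralog of the complex IV subunit Ndufa4 and is known as a target of the hypoxia-inducible factors. It measured 1.80, 1.54, 1.37, 1.11 and 1.65 CPM in Vec and 1.71, 1.97, 2.66, 4.15 and 1.79 in Vec+BBR, so the groups overlapped and Vec+BBR 4 lay highest. The log2 fold change was 0.71 ± 0.24 (SE, edgeR adjusted p = 0.0471), and it was 0.44 without Vec+BBR 4 (edgeR adjusted p = 0.191), the largest adjusted p of the 15 fits without 1 library that lost this call. The other second isoform, Cox7a1, went from 0.416 ± 0.153 to 0.702 ± 0.148 CPM (0.74, edgeR adjusted p = 0.0819, not called), at counts close to the minimum. Stellate markers were higher in the same comparison (143 to 295 CPM in Vec and 310 to 422 in Vec+BBR), and their part in the second isoforms was not tested. Of the members, 1 (Uqcrc1, not called) had groups that did not overlap, against 8.94% of all genes.

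**Figure D3:**
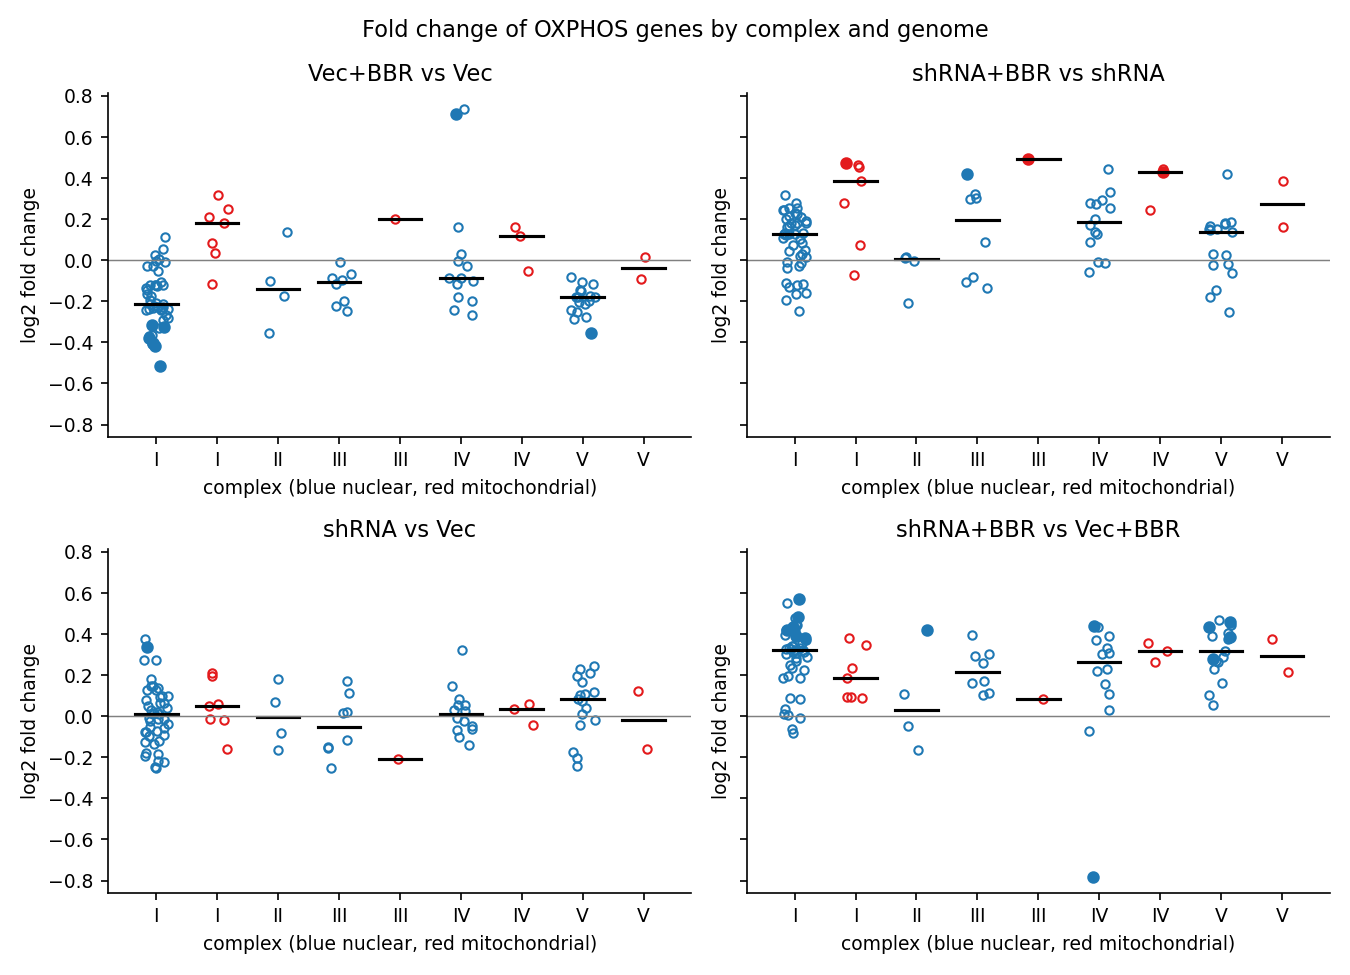
Log2 fold change of each member (y axis) by complex in the 4 pairwise comparisons; filled points passed the edgeR test (adjusted p under 0.05), open points did not, and lines are medians, with nuclear members in blue and mitochondrial members in red. Nuclear medians lie below 0 in Vec+BBR vs Vec (−0.18) and above 0 in shRNA+BBR vs Vec+BBR (0.31).

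The comparison of shRNA+BBR with Vec+BBR asks what Pparg knockdown changed in mice that all received BBR. Of the 101 members 13 were called higher and 1 lower, against 8.18% of all genes (3.32% higher and 4.85% lower). The nuclear median log2 fold change was 0.31 with 81 of 88 above 0, the mitochondrial median 0.24 with 13 of 13 above 0, and that of all genes 0.00. With library totals in place of TMM the split was 27 higher and 1 lower. The share of all genes called in that setting is not given here, so the larger count cannot be read as particular to the members. The nuclear medians were 0.32 in complex I (7 higher), 0.03 in II (1 higher), 0.22 in III (none called), 0.27 in IV (1 higher and 1 lower) and 0.32 in V (4 higher). No mitochondrial member was called, and their largest log2 fold change was 0.38, in complex I.

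Complex I held 7 of the calls among its 45 nuclear members and complex V 4 among its 17. Ndufb8, an accessory subunit of its membrane arm whose promoter is shown further on, measured 108, 75.8, 99.2, 85.3 and 91.9 CPM in Vec+BBR and 137, 148, 125, 115 and 117 in shRNA+BBR. Every shRNA+BBR liver was above every Vec+BBR liver, with a log2 fold change of 0.48 ± 0.11 (SE, edgeR adjusted p = 0.0104). Ndufaf4, an assembly factor, measured 18.9, 13.4, 12.5, 14.4 and 16.4 CPM in Vec+BBR and 19.9, 25.6, 25.5, 18.8 and 22.5 in shRNA+BBR. The 2 groups met only at 18.9 and 18.8 CPM, and the log2 fold change was 0.57 ± 0.13 (SE, edgeR adjusted p = 0.0103). Ndufc2, another membrane-arm accessory subunit, measured 99.4, 65.1, 85.0, 76.8 and 83.9 CPM in Vec+BBR and 106, 115, 123, 101 and 103 in shRNA+BBR. These groups did not overlap either, and the log2 fold change was 0.42 ± 0.11 (SE, edgeR adjusted p = 0.0193), with the call lost only without Vec+BBR 4 among the libraries (0.0523). Ndufb6 (0.41), Ndufa12 (0.39), the assembly factor Ndufaf6 (0.44) and the core NADH-side subunit Ndufv2 (0.38) rose too, with edgeR adjusted p of 0.0203, 0.0193, 0.0239 and 0.0392.

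In complex V the peripheral stalk, the arm that holds the catalytic head still, rose in 2 of its 4 nuclear genes. Atp5o, which joins stalk and head, measured 183, 128, 156, 143 and 149 CPM in Vec+BBR and 199, 233, 220, 178 and 193 in shRNA+BBR. The groups overlapped in 1 liver each, with a log2 fold change of 0.43 ± 0.11 (SE, edgeR adjusted p = 0.0165), and the call held in each of 20 fits without 1 library, as it did for Ndufb8 and Ndufaf4. The stalk subunit Atp5pb rose by 0.28 (edgeR adjusted p = 0.0454), the membrane subunit Atp5j2 by 0.46 (0.028) and the c-ring gene Atp5g1 by 0.39 (0.0198). Of the 5 catalytic head genes none was called, and their median log2 fold change was 0.16. Calls were thus in the stalk, ring and membrane parts. In complex II Sdhb rose by 0.42 (edgeR adjusted p = 0.0475), and in complex IV Cox5b, a zinc-binding subunit, rose by 0.44 (0.048). Several fits without 1 library lost these 2 calls. The edgeR adjusted p reached 0.121 for Sdhb without Vec+BBR 4 and 0.13 for Cox5b without shRNA+BBR 2. Calls were also lost for Atp5pb (0.1 without Vec+BBR 2) and Atp5j2 (0.0725 without shRNA+BBR 2), again as edgeR adjusted p.

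The single member that fell was Ndufa4l2, at a log2 fold change of −0.78 ± 0.24 (SE, edgeR adjusted p = 0.0444), with 0.880 to 1.82 CPM in shRNA+BBR against 1.71 to 4.15 in Vec+BBR. Both of its calls rest on the same Vec+BBR livers, and without Vec+BBR 4 the adjusted p was 0.163. In 7 members the 2 groups did not overlap, against 8.48% of all genes, all of them higher in shRNA+BBR: Ndufaf6, Ndufb6, Ndufb8, Ndufb10, Ndufc2, Atp5g1 and Atp5pb. The number of members called was 4 without Vec+BBR 4, 5 without Vec+BBR 2, 6 without shRNA+BBR 2, 7 without Vec+BBR 5, 8 without shRNA+BBR 1 or shRNA+BBR 3 and 9 without Vec+BBR 3. It was 26 without Vec 4 and 39 without Vec+BBR 1. Without the 4 libraries with the smallest share of whole-number counts (shRNA 3, shRNA 4, shRNA 5 and shRNA+BBR 2), it was 0, in a setting chosen after seeing the data, with edgeR adjusted p of 0.0505 for Ndufaf4, 0.0535 for Ndufb8, 0.0653 for Ndufc2 and 0.0732 for Atp5o.

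**Figure D4:**
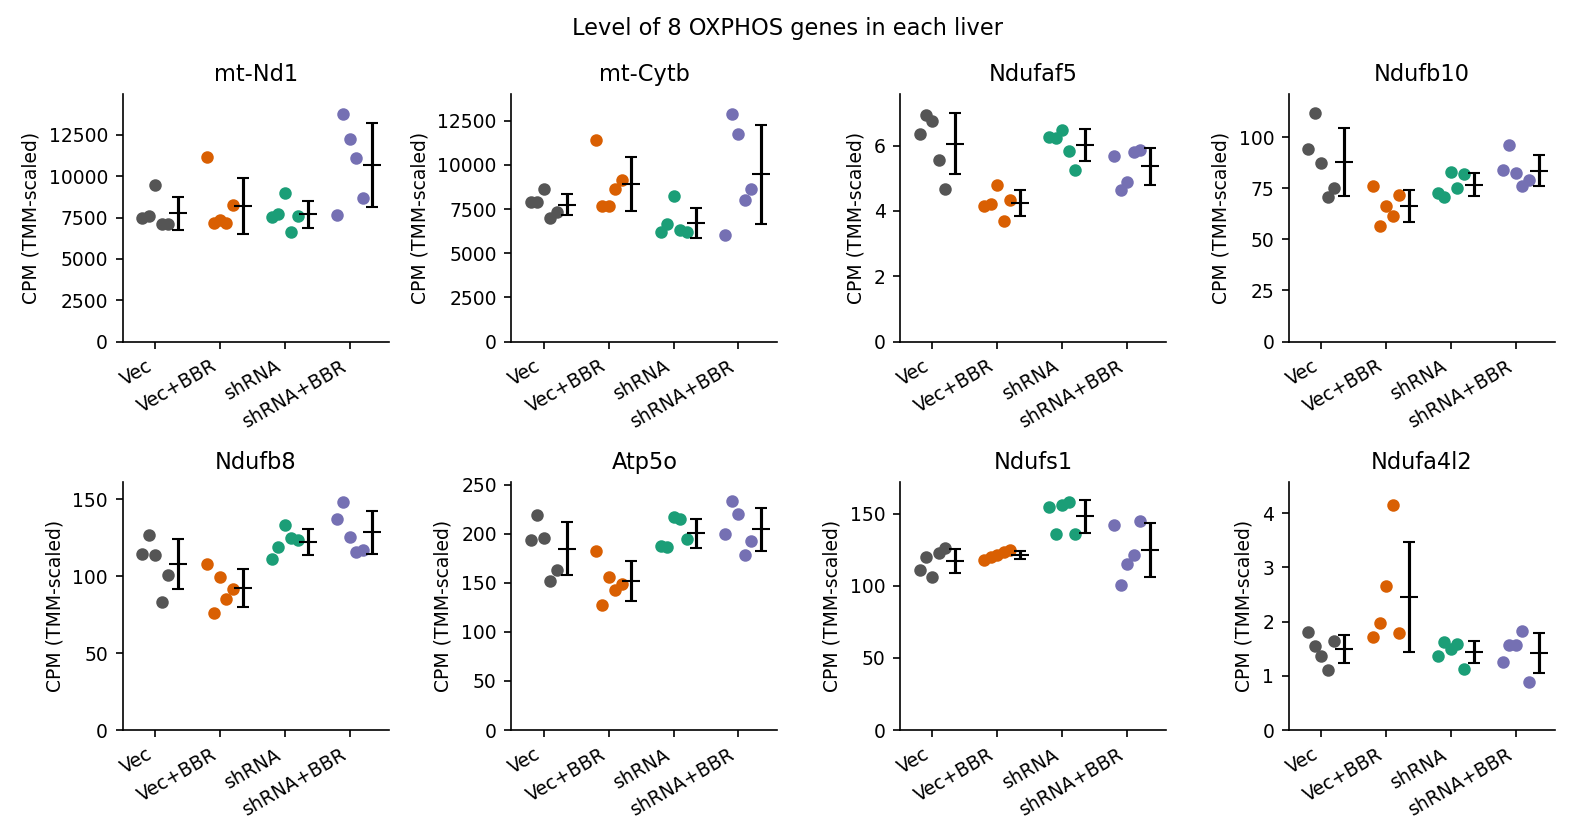
CPM (TMM-scaled) of 8 members in each liver by group; points are livers and bars the mean ± SD (n = 5). Ndufaf5 and Ndufb10 are lowest in Vec+BBR, Ndufb8 and Atp5o are higher in shRNA+BBR than in Vec+BBR, Ndufs1 is higher in shRNA than in Vec, and the mt-Nd1 and mt-Cytb points of shRNA+BBR spread the widest.

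BBR in the knockdown livers, shRNA+BBR against shRNA, gave 4 members called, all higher, against 15.7% of all genes (8.36% higher and 7.29% lower). Of these, 3 were mitochondrial. mt-Nd1, a core subunit of the proton-pumping arm of complex I, measured 7531, 7717, 8962, 6601 and 7605 CPM in shRNA and 7641, 13784, 12219, 11076 and 8649.9 in shRNA+BBR. Both shRNA+BBR 1 and shRNA+BBR 5 lay within the shRNA range, and the log2 fold change was 0.47 ± 0.16 (SE, edgeR adjusted p = 0.0438). mt-Cytb, the mitochondrial subunit of complex III, rose by 0.49 ± 0.16 (SE, 0.0458) and mt-Co2, which takes electrons from cytochrome c in complex IV, by 0.43 ± 0.14 (SE, 0.0474), both by edgeR's adjusted p. mt-Nd4 had nearly the same log2 fold change (0.47, edgeR adjusted p = 0.05) and was not called. The mitochondrial median was 0.39 with 12 of 13 above 0, and mt-Nd5 (−0.07) was the exception.

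Uqcrq, a small subunit of complex III, was the nuclear member called. It measured 225, 238, 264, 240 and 249 CPM in shRNA and 309, 408, 377, 274 and 256 in shRNA+BBR, overlapping in 1 liver of the latter, and its log2 fold change was 0.42 ± 0.14 (SE, edgeR adjusted p = 0.0466). The nuclear median was 0.13 with 62 of 88 above 0, against 0.01 over all genes. By complex it was 0.13 in I, 0.00 in II, 0.19 in III, 0.19 in IV and 0.14 in V. Accessory subunits of complex I (median 0.15, 27 of 30 above 0) and its assembly factors (−0.12, 2 of 8 above 0) lay on opposite sides of 0, but with the length trend removed both lay below it (−0.02 with 12 of 30 above 0, and −0.19 with 3 of 8). The nuclear median turned to −0.04 in that setting, with 29 of 88 above 0. In 2 members, Ndufa10 and Cox8a, the groups did not overlap (11.4% of all genes), and neither was called.

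These 4 calls depended on single libraries. None of the 101 members was called without any one of Vec+BBR 3, Vec+BBR 5, shRNA 1, shRNA 2, shRNA 4, shRNA 5, shRNA+BBR 2 or shRNA+BBR 3. The number was 1 without Vec 1 or Vec+BBR 4, 2 without Vec 5 or shRNA+BBR 4, 8 without Vec 4 or shRNA+BBR 5 and 9 without shRNA+BBR 1. Without shRNA+BBR 2, the liver with the highest mitochondrial share of all, the edgeR adjusted p was 0.127 for mt-Nd1, 0.142 for mt-Cytb, 0.141 for mt-Co2 and 0.13 for Uqcrq.

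Knockdown without the drug, shRNA against Vec, gave the fewest calls under TMM, and their number depended on the processing. Ndufs1, the largest core subunit of complex I, was called higher and no member lower, against 13.1% of all genes (5.28% higher and 7.86% lower). With library totals 9 members were higher and none lower, and with the length trend described further on removed, 21 and none. For library totals the share of all genes called is not given here. Ndufs1 measured 111, 120, 106, 123 and 126 CPM in Vec and 155, 136, 156, 158 and 136 in shRNA, without overlap between the groups. Its log2 fold change was 0.34 ± 0.09 (SE, edgeR adjusted p = 0.0161), called in each of 20 fits that left out 1 library, and it was 0.32 (edgeR adjusted p = 0.12) without the 4 libraries of fewest whole-number counts, of which 3 were shRNA livers. In shRNA+BBR the gene measured 142, 101, 115, 121 and 145 CPM, a range that covers the Vec values, and shRNA+BBR against Vec+BBR did not call it. The nuclear median was 0.01 with 48 of 88 above 0 and the mitochondrial median 0.04 with 7 of 13 above 0. In 4 members the groups did not overlap (8.96% of all genes): Ndufs1, Atp5a1 and Atp5b higher in shRNA, and Sdhd lower. The number called was 2 without Vec 1, Vec+BBR 1, Vec+BBR 2, shRNA 2 or shRNA 5, and 3 without Vec 2.

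Whether BBR acted differently with and without Pparg knockdown was tested directly as the difference between the BBR responses. edgeR called 0 of 101 members, against 0.146% of all genes (18 genes), and DESeq2 called 1. With the length trend removed, edgeR again called 0 members, against 0.122% of all genes. An unadjusted edgeR p under 0.05 was found for 28 members with the trend kept. The matching share of all genes is not given here, so this number cannot be read as particular to the members. In that setting the median difference under 600 bases was 0.33 in genes that are not members and 0.40 in nuclear members. With the trend removed it was found for 14 of 101 members, against 2031 of 12342 genes. The nuclear median difference was 0.30 with 75 of 88 above 0. The lowest p was that of Ndufb10, with a difference of 0.52 on the log2 scale (95% interval 0.22 to 0.83, edgeR adjusted p = 0.108). Ndufs8 (0.56, adjusted p = 0.131) and Ndufa12 (0.43, adjusted p = 0.135) came next. The BBR response in the control mice is thus not shown to differ from the response in the knockdown mice.

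Complex II has no mitochondrial subunit and also serves the tricarboxylic acid cycle. Its flavoprotein Sdha measured 478 ± 50.5 CPM in Vec, 526 ± 26.5 in Vec+BBR, 542 ± 22.0 in shRNA and 470 ± 79.4 in shRNA+BBR. Sdhb measured 301 ± 52.1, 236 ± 48.3, 316 ± 18.5 and 315 ± 32.9 CPM in the same order. The log2 fold changes in Vec+BBR vs Vec were 0.14 for Sdha and −0.35 for Sdhb, and in shRNA+BBR vs Vec+BBR −0.16 for Sdha and 0.42 for Sdhb, of which only the last was called. The membrane anchors Sdhc and Sdhd stayed between −0.18 and 0.11 in the 4 pairwise comparisons, with none called. The catalytic pair thus had opposite signs in both. In shRNA vs Vec both were above 0 (0.18 and 0.07) and in shRNA+BBR vs shRNA both below (−0.21 and −0.00), none of them called.

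The nuclear members are short messages, and in these libraries fold changes moved with transcript length in genes of every kind. Their median length was 731 bases (363 to 2900, with 67.0% under 1000), against 2701 bases over all genes tested (7.02% under 1000). In shRNA+BBR vs Vec+BBR the median log2 fold change of genes that are not members went from 0.24 in the class under 600 bases to −0.07 at 4000 bases and over, and that of nuclear members from 0.32 under 600 bases to 0.18 in the class from 1000 bases. In Vec+BBR vs Vec, non-members went from −0.11 to 0.07 over the same classes and members from −0.14 under 600 bases to −0.12 in the class from 1000 bases. The difference of the BBR responses went from 0.33 to −0.15 in non-members, and was 0.40 in the shortest members. In the comparisons just given, members and other short genes lay on the same side of 0. In each of these classes the members' median was further from 0 in the first 2 comparisons. That did not hold in the remaining pairwise comparisons. In shRNA vs Vec the class from 600 bases had medians of 0.02 in members and −0.13 in other genes, and the class under 600 bases −0.07 and −0.08. For shRNA+BBR vs shRNA they were 0.13 and 0.16 from 600 bases, and 0.20 and 0.21 under 600 bases. Whether the trend comes from the RNA, the library or the liver was not tested.

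**Figure D5:**
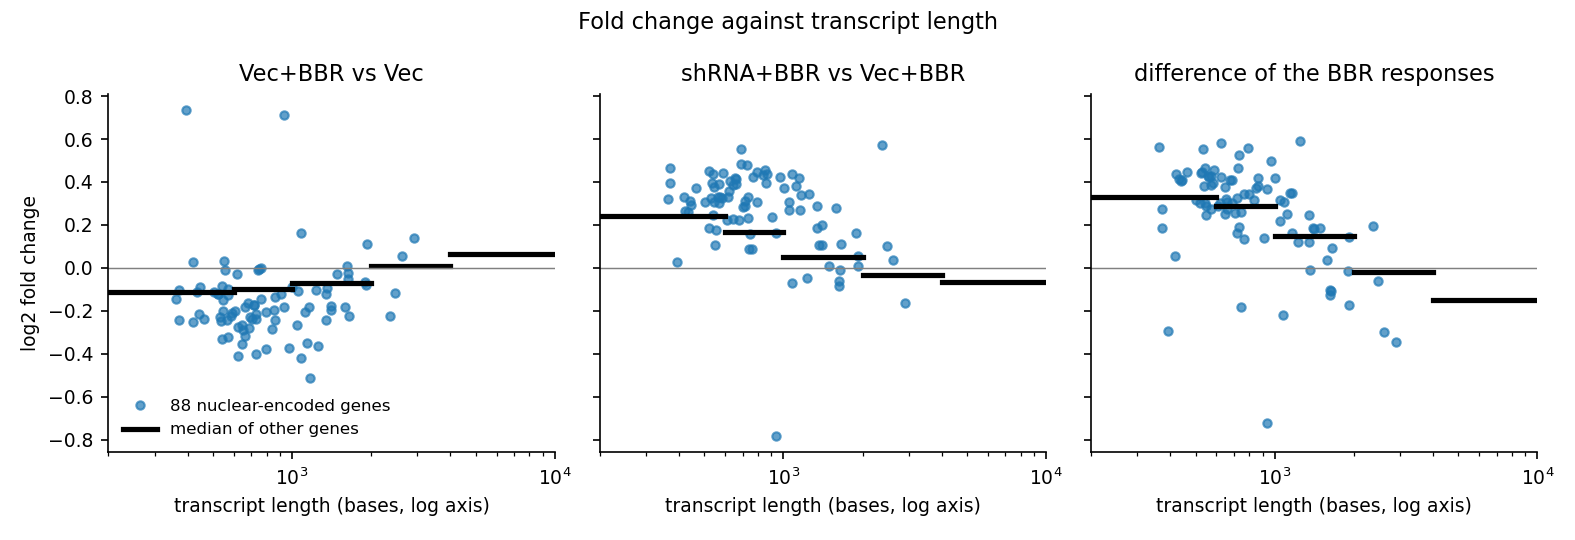
Log2 fold change of the 88 nuclear members (points) against transcript length in bases, with the median of genes that are not members in each length class (lines), for Vec+BBR vs Vec, shRNA+BBR vs Vec+BBR and the difference of the BBR responses. The lines slope with length (0.24 to −0.07 in the second panel), and most members lie on their short side.

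With the length trend removed from each library, an alternative chosen after seeing the data, the nuclear median in shRNA+BBR vs shRNA changed sign, from 0.13 to −0.04. The others shrank to −0.06 in Vec+BBR vs Vec, 0.09 in shRNA+BBR vs Vec+BBR and 0.03 in the difference of the BBR responses, and rose to 0.10 in shRNA vs Vec. The members called were then 4 higher and 8 lower of 101 in Vec+BBR vs Vec (9.23% and 8.25% of all genes), and 4 higher and 3 lower in shRNA+BBR vs shRNA (10.2% and 7.16%). In shRNA vs Vec 21 were higher and none lower (6.77% and 8.78%), and in shRNA+BBR vs Vec+BBR 16 were higher and 1 lower (4.72% and 5.35%). Calls made with and without the trend were Ndufaf5, Ndufb10, Ndufs8, Atp5g1 and Ndufa4l2 in Vec+BBR vs Vec, mt-Cytb and Uqcrq in shRNA+BBR vs shRNA, and Ndufs1 in shRNA vs Vec. In shRNA+BBR vs Vec+BBR there were 11: Ndufaf4, Ndufb6, Ndufb8, Ndufc2, Ndufv2, Sdhb, Cox5b, Atp5j2, Atp5o, Atp5pb and Ndufa4l2. Of the nuclear medians, only that of shRNA vs Vec lay further from 0 with the trend removed, while the genes just named passed the test both ways with all livers kept. Many of them, such as Sdhb and Cox5b, lost the call in fits with the trend kept that left out 1 library.

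Nuclear respiratory genes are known for short promoters with sites for NRF1, GABPA, YY1 and Sp1, and the promoters of the members were read for them. RefSeq windows of GRCm38.p6, from 250 bases before to 50 after the start site, matched 73 of the 88 nuclear members. The NRF1 word GCGCATGC, which overlaps its own reverse complement by 6 letters, was in 12 of these (16.4%), against 3.05% of 27025 genes with a window, on either strand. The YY1 word AAGATGGC was in 11 (15.1% against 3.19%), the Sp1 word GGGGCGGGG in 11 (15.1% against 12.9%), the GABPA word CCGGAAGT in 5 (6.85% against 4.31%) and the ERR word TCAAGGTCA in 2 (2.74% against 0.466%). A match is a description of letters and not of binding.

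A match in each of 6 members called above is shown on the gene's own strand with the matching letters in capitals, since these include genes whose calls were most stable. Ndufaf4 and Ndufaf5 hold further NRF1 matches, and Sdhb and Atp5pb an Sp1 match each, that are not shown. The windows lie at chr19:44555393-44555415 (minus) for Ndufb8, chr5:145191500-145191529 (minus) for Atp5j2, chr3:105959248-105959277 (minus) for Atp5pb, chr4:140961206-140961235 (plus) for Sdhb, chr4:24898073-24898102 (plus) for Ndufaf4 and chr2:140170651-140170680 (plus) for Ndufaf5.
Ndufb8, YY1: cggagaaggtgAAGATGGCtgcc
Atp5j2, YY1: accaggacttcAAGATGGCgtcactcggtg
Atp5pb, YY1: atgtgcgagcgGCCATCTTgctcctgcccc
Sdhb, NRF1: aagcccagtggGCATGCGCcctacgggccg
Ndufaf4, NRF1: gcccctggtgtGCGCATGCtccgtgcgtac
Ndufaf5, NRF1: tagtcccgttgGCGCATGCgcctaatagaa
Members with the NRF1 word and members without it had similar fold changes. In Vec+BBR vs Vec the medians were −0.22 over 12 and −0.18 over 61, and in shRNA+BBR vs Vec+BBR they were 0.36 and 0.31. The medians with and without the YY1 word in Vec+BBR vs Vec were −0.20 over 11 and −0.18 over 62.

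Lists of genes around the complexes are read against the shares of all genes called, 15.5% in Vec+BBR vs Vec, 15.7% in shRNA+BBR vs shRNA, 13.1% in shRNA vs Vec and 8.18% in shRNA+BBR vs Vec+BBR. Of 33 tested regulators of mitochondrial gene programmes, 2 were lower in Vec+BBR vs Vec: the nuclear receptor Esrra (−0.45, edgeR adjusted p = 0.0191) and Polrmt, the mitochondrial RNA polymerase (−0.46, edgeR adjusted p = 0.00342). Polrmt was lower in shRNA+BBR vs shRNA as well (−0.32, edgeR adjusted p = 0.0321), the comparison in which mt-Nd1, mt-Cytb and mt-Co2 were higher. In that comparison 3 regulators were lower and none higher, in shRNA vs Vec none was called, and in shRNA+BBR vs Vec+BBR 1 was higher and 1 lower. Subunits and assembly factors whose names fall outside the member rule (49 tested) had 1 higher and 4 lower in Vec+BBR vs Vec, 2 and 3 in shRNA+BBR vs shRNA, 2 and 5 in shRNA vs Vec and 2 and 2 in shRNA+BBR vs Vec+BBR. Cyc1, the cytochrome c1 of complex III, fell in Vec+BBR vs Vec (−0.39, edgeR adjusted p = 0.00294). It rose in shRNA+BBR vs Vec+BBR (0.31, edgeR adjusted p = 0.0217), each time in the direction most nuclear members took. Cox10, needed for the heme of complex IV, fell with BBR in both comparisons (−0.48 and −0.45, with edgeR adjusted p of 0.00193 and 0.00577).

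Other parts of mitochondrial metabolism also had calls. Among 13 carriers, uncoupling proteins and side entries of electrons, Ucp2 was higher with BBR in both comparisons (0.92 and 1.28, edgeR adjusted p of 0.0212 and 0.00601), while none was called in shRNA+BBR vs Vec+BBR. Coq8a, required for coenzyme Q synthesis, was lower with BBR in both (−0.77 and −0.58, edgeR adjusted p of 0.000389 and 0.00601), among 13 genes of that pathway. A list of 19 genes held the tricarboxylic acid cycle together with pyruvate dehydrogenase and its kinases Pdk2 and Pdk4. Of these, 2 were higher and 2 lower in Vec+BBR vs Vec, and 1 and 0 in shRNA+BBR vs shRNA. The numbers were 1 and 2 in shRNA vs Vec and 4 and 2 in shRNA+BBR vs Vec+BBR. In the last, the lower were Pdk2 (−0.41) and Suclg2 (−0.26), with edgeR adjusted p of 0.0178 and 0.0391, and among the higher were Fh1 (0.56), Idh3a (0.50) and Mdh2 (0.40), with edgeR adjusted p of 0.0152, 0.00445 and 0.00427. Of 78 mitochondrial ribosomal protein genes, 1 was higher and 5 lower in Vec+BBR vs Vec, 7 higher and 3 lower in shRNA+BBR vs shRNA, 1 higher and 8 lower in shRNA vs Vec, and 4 higher and 2 lower in shRNA+BBR vs Vec+BBR.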

How the data were processed

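Liver mRNA of 20 mice was captured with oligo(dT) and sequenced on an Illumina NovaSeq. Expected counts and FPKM values per gene were deposited by the authors; the build was mm10 per the submitters' processing notes, and the aligner and counter were not given in the sources used here. Expected counts were not all whole (91.9% to 93.3% of values were) and were rounded. Names of 12 mitochondrial mRNAs came from GENCODE identifiers. Groups were compared with edgeR 4.0.16 (R 4.3.3; quasi-likelihood, TMM, 1 mean per group over all 20 livers, genes passing a minimum count of 10; Benjamini-Hochberg over 12342 genes at 0.05). Medians over members carry no test. DESeq2 1.42.0 served as an alternative. Scripts were tested on simulated data.

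Named genes were all mitochondrial members, up to 8 called nuclear members per direction and comparison, the highest nuclear member per complex, isoform sets and complex II. Others, such as the members without overlap, were chosen after their values were seen. The members and lists were chosen with earlier results of these data known. Sources did not say whether mice shared cages or litters, so p-values measure the spread between these livers.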

Additional observations from a re-analysis of the deposited data

Results flagged for a closer look

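In a check of 184 sets of 5 livers, each with 1 value per liver, 11 had 1 liver that lay far from the other 4, where chance gives about 1 in 20. The number of such sets is thus close to what chance gives. For the mitochondrial share of counts these were Vec+BBR 1 at 13.8% (next 11.0%) and shRNA 3 at 12.3% (next 10.4%). The same livers stood apart for single mitochondrial mRNAs, as CPM: Vec+BBR 1 for mt-Nd1 (11100, next 8240) and mt-Atp6 (7160, next 5180), and shRNA 3 for mt-Nd3 (758, next 555), mt-Cytb (8220, next 6660), mt-Co2 (9860, next 7600) and mt-Atp6 (6060, next 4550). Vec 3 stood apart for mt-Nd1 (9460, next 7580) and shRNA+BBR 2 for mt-Atp8 (434, next 212). Among the nuclear members checked, Vec 2 stood apart for Sdhd (256 CPM, next 208). All but the last of these single-gene values were in mitochondrial genes. The mitochondrial share is the sum of these genes' counts in the same livers, so the mitochondrial sets are not independent. Vec 3, Vec+BBR 1, shRNA 3 and shRNA+BBR 2 were the deepest libraries of their groups, and the part of depth was not tested.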

How the results depend on the processing

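Calls at these fold sizes sat close to the threshold. In the order Vec+BBR vs Vec, shRNA+BBR vs shRNA, shRNA vs Vec, shRNA+BBR vs Vec+BBR and the difference of the BBR responses, the members called were 8, 4, 1, 14 and 0, and with DESeq2 they were 14, 8, 4, 31 and 1. With library totals they were 9 in shRNA vs Vec and 28 in shRNA+BBR vs Vec+BBR. Shares of all genes called with DESeq2 and with library totals are not given here, so these counts describe only how the members' calls moved. Without a filter on low counts they were 5 in Vec+BBR vs Vec and 0 in shRNA+BBR vs shRNA, with 10 counts asked of every library 2 in shRNA vs Vec, and with only the groups compared 2 in Vec+BBR vs Vec. Among settings chosen after seeing the data, leaving out the 4 libraries of highest mitochondrial share gave 16 and 2 in the first pair, leaving out the 4 with the fewest whole-number counts gave 5, 0, 0 and 0 in the pairwise comparisons, and removing the length trend gave 7 in shRNA+BBR vs shRNA and 21 in shRNA vs Vec. That removal took the nuclear medians to −0.045 in shRNA+BBR vs shRNA, 0.093 in shRNA+BBR vs Vec+BBR and 0.026 in the difference. Measured against the nuclear members, the mitochondrial median difference was −0.049. As a share of summed FPKM the mitochondrial mRNAs held 14.6%, 16.9%, 15.9% and 19.3% in Vec, Vec+BBR, shRNA and shRNA+BBR. Causes were not tested. Of 6771 values of named genes under all alternatives, 6451 kept their direction and side of the threshold, 228 lost and 92 gained a call, and 0 called values changed sign. Most of these values had no call to lose, so the number kept says little about how stable the calls were.

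Leaving out 1 library at a time, the counts ran from 1 to 21, 0 to 9, 1 to 3, 4 to 39 and 0 to 0, the nuclear medians from −0.255 to −0.123, 0.054 to 0.175, −0.049 to 0.08, 0.242 to 0.4 and 0.239 to 0.386, and the mitochondrial medians from −0.005 to 0.158, 0.269 to 0.502, −0.069 to 0.077, 0.078 to 0.393 and 0.123 to 0.416. Mean mitochondrial shares ran from 9.54% to 9.96% in Vec, 10.4% to 11.3% in Vec+BBR, 10.2% to 10.8% in shRNA and 12.3% to 13.8% in shRNA+BBR.

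The replicate numbers did not pair the livers: deviations of same-numbered livers correlated at −0.302 to 0.262, over 0.1 in 6 of 30 pairs of livers. With the number as a replicate block the members called were 7, 1, 1, 13 and 0.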

Other observations

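Knockdown could be read in a pair of comparisons that share no library, shRNA vs Vec and shRNA+BBR vs Vec+BBR. With the length trend removed, a setting chosen after seeing the data, 8 members were called higher in both: the complex I genes Ndufaf4, Ndufb6, Ndufb8, Ndufc2 and Ndufv2, the stalk genes Atp5o and Atp5pb and the membrane subunit Atp5j2 of complex V. They were 38.1% of the 21 members called higher without BBR and 8 of the 16 called higher with it. Over all genes tested, 194 were higher in both, which is 23.2% of 836 and 33.3% of 583. With the trend kept, none of these 8 was called in shRNA vs Vec.

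The tagwise biological coefficient of variation, a measure of spread between livers of a group, had a median of 0.137 over the nuclear members, 0.191 over the mitochondrial members, 0.147 over all genes tested and 0.122 over the 4213 genes at or above the level of the lowest nuclear subunit.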
